A study of Mus musculus with 70 samples.

Results

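Innate lymphoid cells (ILC) are lymphocytes without rearranged antigen receptors, and they arise in bone marrow through a series of progenitors. The comparison described here set ILC2P, the progenitors of group 2 ILC, against CILP, the common innate lymphoid progenitors, both sorted from wild-type (WT) mouse bone marrow. Samples were taken by their labels alone: 17 of the 70 samples in the series, of which 2 are technical repeats of a CILP library and were added to it. That left 8 ILC2P and 7 CILP libraries, each made from 100 cells. A further CILP library that the submitters call an outlier was left out.

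Both groups were in both batches, with 3 ILC2P and 3 CILP libraries in batch 1 and 5 and 4 in batch 2. The labels give neither strain, age, sex nor sort gate, and no treatment is named. They do not say that libraries came from separate animals, so the p-values measure a spread between libraries that may be technical. Other groups of the series gave values to set beside these: WT CLP and α4β7+ CLP (lymphoid progenitors ahead of CILP), a population labelled ILCP, and TCF7 and Nfil libraries of both populations. The design text gives mice labelled TCF7 here as TCF7-/-, and the labels describe Nfil as an unsuccessful knockout. Libraries of the genotype labelled Id2 (2 CLP, 2 CILP and 1 ILCP) and 5 TCF7 CLP libraries also entered the main fit. Their values are not given here.

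Group 2 ILC respond to interleukin-33, interleukin-25 and thymic stromal lymphopoietin with type 2 cytokines, and they depend on the transcription factor GATA-3. Their progenitors in mouse bone marrow are recognised by the interleukin-33 receptor chain ST2 (Il1rl1), the interleukin-2 receptor α chain (Il2ra) and Sca-1 (Ly6a). The common progenitor is known for a broader set of factors, among them TCF-1 (Tcf7), TOX and PLZF (Zbtb16), and it gives rise to several ILC groups.

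Libraries were made by CEL-seq, a method that sequences the 3′ ends of polyadenylated transcripts after linear amplification. Values are CPM, counts relative to library totals scaled by TMM, a scaling that assumes most genes do not change. ILC2P libraries were shallower, at 19322 to 80873 counts (median 66812.5) against 42266 to 624668 in CILP (median 149467). Most of that gap lay in batch 2, where ILC2P held 19322 to 69702 and CILP 149467 to 624668 counts; in batch 1 the ranges were 68253 to 80873 and 42266 to 139930. With libraries of at least 40000 counts thinned to that depth, 4134 to 5576 genes were detected in 6 ILC2P libraries and 5594 to 6982 in 7 CILP libraries, and the ranges did not overlap. ILC2P replicate 1, the shallowest, gave 23.59% of its counts to mitochondrial transcripts, against 2.322 to 10.47% in the other ILC2P libraries and 2.833 to 7.688% in CILP. In 12 control wells without cells, 51 to 9439 counts fell on genes. In bulk samples, fewer cells carrying a transcript and less transcript per cell cannot be told apart.

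The promoters of 3 genes among the largest changes, 2 higher and 1 lower in ILC2P, are shown with 2 short motifs: GATAA, the core bound by GATA factors, and CTTTGA, the core bound by TCF-1. Windows run from 250 bases before to 50 after a start site, from RefSeq on GRCm38.p6, and both strands were searched. Il1rl1, the gene of ST2, has 2 annotated start sites with GATAA in each window, while Rnf128, a ubiquitin ligase gene, and Nkg7, a cytotoxic granule gene, hold neither motif. Promoters of the other genes chosen by the same rule, Tmsb15a and Pdcd1 among them, hold neither motif and are not shown. Capitals mark GATAA or its reverse complement TTATC.
Il1rl1, first start site, chr1:40429320-40429619, + strand: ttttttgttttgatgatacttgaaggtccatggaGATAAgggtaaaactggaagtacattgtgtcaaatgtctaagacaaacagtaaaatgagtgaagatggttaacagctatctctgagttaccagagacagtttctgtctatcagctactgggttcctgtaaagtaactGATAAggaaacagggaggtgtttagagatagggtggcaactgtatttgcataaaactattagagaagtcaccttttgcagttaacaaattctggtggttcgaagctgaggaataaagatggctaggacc
Il1rl1, second start site, chr1:40439379-40439678, + strand: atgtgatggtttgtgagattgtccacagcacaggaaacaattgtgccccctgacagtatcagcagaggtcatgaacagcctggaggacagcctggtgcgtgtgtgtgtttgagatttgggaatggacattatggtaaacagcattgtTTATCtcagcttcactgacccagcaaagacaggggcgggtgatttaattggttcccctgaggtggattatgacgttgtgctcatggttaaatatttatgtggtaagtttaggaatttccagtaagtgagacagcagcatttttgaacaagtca
Rnf128, chrX:139610370-139610669, + strand: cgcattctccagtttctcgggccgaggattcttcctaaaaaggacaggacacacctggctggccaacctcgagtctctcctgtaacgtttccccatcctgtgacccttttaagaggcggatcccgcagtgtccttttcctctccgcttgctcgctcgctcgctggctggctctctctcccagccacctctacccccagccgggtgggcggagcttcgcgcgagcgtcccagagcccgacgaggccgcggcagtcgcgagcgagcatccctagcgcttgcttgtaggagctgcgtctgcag
Nkg7, chr7:43436888-43437187, + strand: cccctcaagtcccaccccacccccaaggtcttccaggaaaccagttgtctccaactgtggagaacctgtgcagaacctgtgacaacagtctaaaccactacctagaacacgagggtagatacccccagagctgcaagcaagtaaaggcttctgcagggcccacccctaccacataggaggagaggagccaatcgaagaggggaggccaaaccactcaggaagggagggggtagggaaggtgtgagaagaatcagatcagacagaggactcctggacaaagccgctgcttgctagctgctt
GATAA was present in 25.4% of all 32851 promoters, in 20.4% of 103 promoters of genes higher in ILC2P, and in 19.3% of 492 promoters of genes lower in ILC2P. CTTTGA was present in 16.0%, 13.6% and 11.2% of the same sets. Neither motif was more frequent among the promoters of genes that differed than among all promoters, and a match or its absence is a description of these letters alone.

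The populations differed in 584 of 10972 tested genes (5.32%) at an adjusted p under 0.05 in edgeR's quasi-likelihood test with Benjamini-Hochberg adjustment, the test behind every adjusted p below. In ILC2P 121 genes were higher (1.1% of those tested) and 463 lower (4.22%). The 12 named genes with the largest rises included Il1rl1, Ly6a, Il2ra, Klrg1 and Cysltr1, and the 12 with the largest falls included Igfbp4, Nkg7, Pdcd1 and Cd7. The median log2 fold change of all tested genes, ILC2P minus CILP, was −0.55, and list medians are read against it. Of the genes called, 16 higher and 88 lower ones had no overlap between the 2 groups of libraries, among 114 tested genes without overlap (1.039%). CILP had 0 counts for 37 of the higher genes, and ILC2P had 0 counts for 201 of the lower ones. These 2 numbers are not at equal depth, since 3 counts over a group are 5.68 CPM in ILC2P and 2.22 in CILP. The share of all tested genes at 0 in each group is not given here.

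The share of calls in each direction differed between fits. Higher genes made up 20.7% of the calls, against 39.9% in DESeq2 (180 higher, 271 lower) and 40.9% in edgeR with DESeq2's size factors (160 and 231). Within batch 1, where depths were closer, 64 were higher and 123 lower (34.2% higher); within batch 2, 15 were higher and 78 lower (16.1%). With all libraries of at least 40000 counts thinned to that depth, 40 were higher and 33 lower of 665 tested (54.8%). A fit of the compared libraries alone gave 46 and 44 of 1245 (51.1%), and limma-voom gave 232 and 486 (32.3%). Without the 2 shallow ILC2P libraries, replicates 1 and 3, 91 were higher and 235 lower (27.9%). These fits also differ in the genes tested or the libraries used, and what sets the share was not tested. The direction of single genes is reported here, and not the balance of rises and falls.

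**Figure D1:**
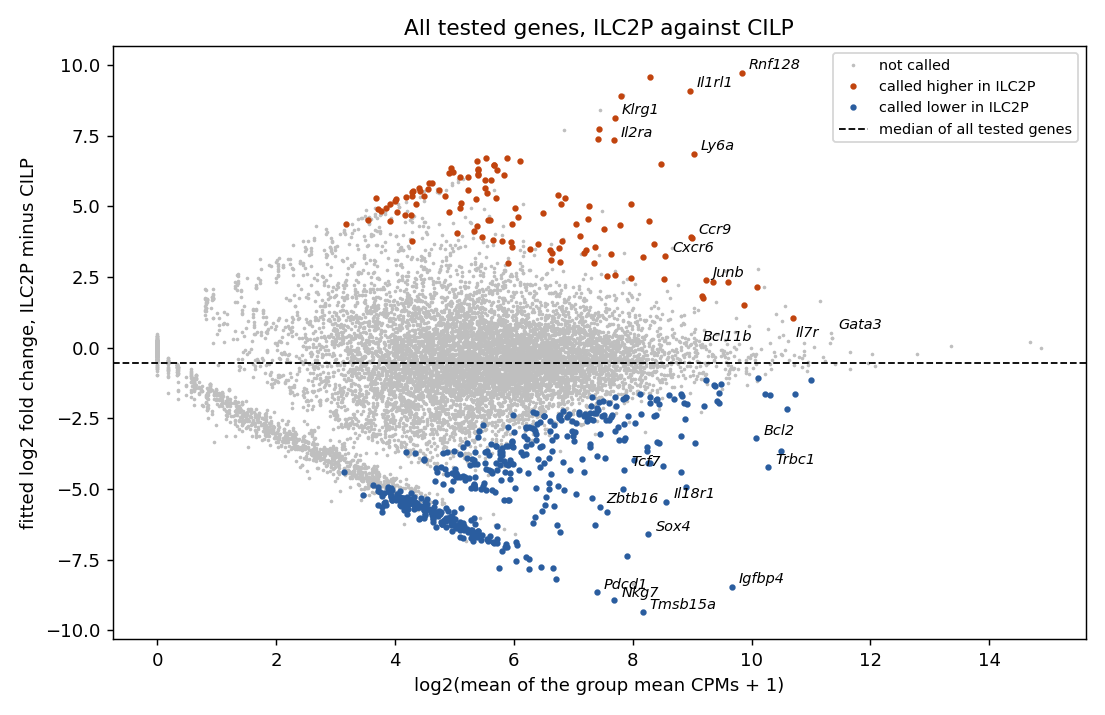
Fitted log2 fold change, ILC2P minus CILP, against log2 of the mean of the group mean CPMs plus 1, for 10972 tested genes; the dashed line is the median of all genes (−0.55). Coloured points are the 121 genes called higher (red) and 463 called lower (blue) in ILC2P, and the diagonal edges hold genes with 0 counts in 1 group.

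The markers given for ILC2P separated the groups, except Gata3. Il1rl1 (chromosome 1, 40404864 to 40465418, GRCm38.p6) was at 267, 988 and 1707 CPM in ILC2P (lowest, median and highest of 8 libraries), and in CILP at 6.89 in replicate 4 and 0 in the other 6. No ILC2P library came near the CILP range. The pooled ratio was 1366, with a 95% counting interval of 244 to 54051, since CILP held 1 count. The fitted log2 fold change was 9.08 (SE 0.94, adjusted p = 7.3e-13). SE is here the absolute log2 fold change divided by the square root of the test's F statistic, and not a separate estimate of error.

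Ly6a (chromosome 15, 74994877 to 74998031), the gene of Sca-1, was at 302, 1147 and 1707 CPM in ILC2P and at 0, 3.72 and 21 in CILP. Mean levels stood 142-fold apart (log2 6.86, SE 0.88, adjusted p = 9.7e-08). Il2ra (chromosome 2, 11642792 to 11693194) was at 138, 344 and 828.6 CPM in ILC2P, and in CILP at 7.44 in replicate 1 and 0 elsewhere (log2 7.33, SE 1.05, adjusted p = 2.98e-07). The groups did not overlap for either gene. The labels do not say whether Sca-1 or the other markers were used in the sort.

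Gata3 (chromosome 2, 9857078 to 9887953), which encodes the factor GATA-3, was at 276, 2588 and 6387 CPM in ILC2P and at 912, 1923 and 4180 in CILP. The groups overlapped across most of their range, and the difference did not pass (log2 0.53, SE 0.81, adjusted p = 0.779). The lowest ILC2P value was that of replicate 1, and the other 7 libraries held at least 1973 CPM. In exact 2-sided permutation tests of log2(CPM + 1) within batches, Il1rl1, Il2ra and Ly6a each reached p = 0.0003968, the smallest that 2520 permutations allow (0.0005291 adjusted over the 4 markers). Gata3 gave p = 0.5964 in the same exact permutation test.

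Rnf128, which encodes the E3 ubiquitin ligase GRAIL, had the largest fitted rise of any named gene. It lies on chromosome X (139563340 to 139673145) and was at 480, 1962 and 3008 CPM in ILC2P. In CILP it was at 7.44 in replicate 1 and at 0 in the other 6 libraries. Every ILC2P library stood far above every CILP library, and the gene had counts in both batches of ILC2P. The pooled ratio was 1321 (counting interval 365 to 10925; log2 9.72, SE 0.84, adjusted p = 2.77e-16). Within batch 1 the fitted log2 value was 11 (adjusted p = 3.9e-17) and within batch 2 it was 9.37 (adjusted p = 9.55e-08).

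**Figure D2:**
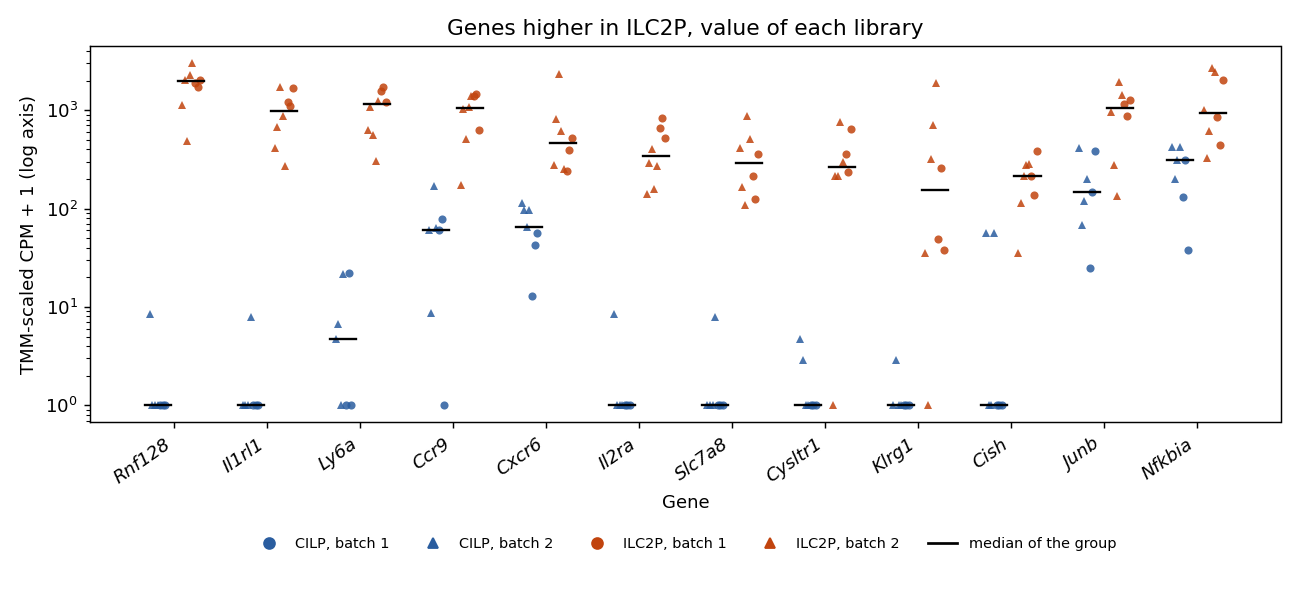
TMM-scaled CPM plus 1 (log axis) of 12 genes called higher in ILC2P, 1 point per library; circles are batch 1, triangles batch 2, black lines group medians. For Rnf128, Il1rl1, Ly6a, Ccr9, Cxcr6, Il2ra and Slc7a8 no ILC2P library overlaps a CILP library, while Klrg1 spans 0 to 1897 CPM within ILC2P.

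Among 16 tested genes of receptors known on group 2 ILC, 6 were higher and 3 lower in ILC2P (median log2 1.36). Besides Il1rl1, Il2ra and Ly6a, the higher ones were Cysltr1, Klrg1 and Vipr2. Cysltr1, a receptor for cysteinyl leukotrienes, was at 0, 266 and 748 CPM in ILC2P and at most 3.72 in CILP (adjusted p = 4.71e-06). Its only ILC2P library at 0 was replicate 1, the shallowest. Klrg1, an inhibitory receptor that marks mature group 2 ILC, was at 0, 154 and 1897 CPM against at most 1.9 in CILP (log2 8.13, SE 1.27, adjusted p = 4.34e-06). Its level differed widely among ILC2P libraries, with the highest in replicate 5 and none in replicate 2. Vipr2, a receptor for vasoactive intestinal peptide, was at 103 ± 121 CPM in ILC2P and 0.271 ± 0.717 in CILP (SD, n = 8 and 7, adjusted p = 0.00524).

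The 3 receptor genes that fell were Il18r1, Crlf2 and Kit. Il18r1, an interleukin-18 receptor chain, was at 0, 0 and 95.4 CPM in ILC2P and at 344, 712 and 992 in CILP. The ranges did not meet, and mean levels were 47.2-fold higher in CILP (log2 −5.46, SE 0.79, adjusted p = 3.07e-07). Crlf2, a chain of the receptor for thymic stromal lymphopoietin, was at 0, 0 and 25.1 CPM against 40.9, 112 and 237 in CILP (log2 −3.78, SE 1.01, adjusted p = 0.0165). Kit, the receptor for stem cell factor, was at 0, 0 and 150 CPM against 83.1, 275 and 483 (adjusted p = 0.0286). The Kit ranges overlapped and its call was lost in 5 of 15 fits that left out 1 library: CILP replicate 2, or ILC2P replicate 3, 4, 5 or 8 (adjusted p = 0.0513 to 0.0536).

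Other receptor genes did not pass. Il7r, the interleukin-7 receptor, was at 207, 1958 and 2619 CPM in ILC2P and 920, 1224 and 3132 in CILP (adjusted p = 0.825). Il17rb, a chain of the interleukin-25 receptor, was at 266 ± 139 against 165 ± 38.6 CPM (SD, n = 8 and 7, adjusted p = 0.631), and the costimulator Icos at 692 ± 360 against 487 ± 417 (adjusted p = 0.628). Both populations carried these transcripts.

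Of the common γ chain receptors 1 was higher and 2 were lower of 8 tested (median log2 −0.36). Il2ra rose, while Il2rb, the β chain of the interleukin-2 receptor, had counts in 1 ILC2P library (69.1 CPM) and lay at 0, 119 and 204 CPM in CILP. The pooled ratio for Il2rb was 40.1 higher in CILP (counting interval 11 to 334, adjusted p = 0.0209). Of the interleukin-1 family receptors and their signalling partners 1 was higher and 2 were lower of 13 tested (median log2 −0.98): Il1rl1 against Il18r1 and Irak3. Irak3, an inhibitor of Toll and interleukin-1 receptor signalling, was at 0 in all 8 ILC2P libraries and at 0, 108 and 164 CPM in CILP (at least 13.9-fold lower in ILC2P, adjusted p = 0.0104).

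Downstream of cytokine receptors, 2 of 20 tested STAT and SOCS genes rose and none fell (median log2 0.37). Both are feedback inhibitors induced by STAT5. Cish was at 34.5, 214 and 385 CPM in ILC2P and at 0, 0 and 55.8 in CILP (log2 3.79, SE 1.01, adjusted p = 0.0156). Only CILP libraries of batch 2 had counts for it, and the groups overlapped through the lowest ILC2P value, replicate 1. Socs2 was at 0, 18.5 and 526.2 CPM against at most 3.79 in CILP (adjusted p = 0.0078).

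Effector genes of group 2 ILC were mostly low or not tested. Of 16 listed, 10 were tested and 2 rose (median log2 0.34), while Il5, Il13, Il9 and Il6 did not reach the count filter. Csf2, which encodes the cytokine GM-CSF, was at 0, 63.8 and 338 CPM in ILC2P and had 1 count in all CILP libraries together (adjusted p = 0.00521). Hpgds, which encodes the prostaglandin D2 synthase of haematopoietic cells, was at 0, 6.2 and 656 CPM against 0, 0 and 41.3 (adjusted p = 0.0222). Its counts lay mostly in 2 ILC2P libraries, and without replicate 5 or 7 it did not pass (adjusted p = 0.0789 and 0.0785). Il4 was at 26.8 ± 41.2 against 6.09 ± 13.3 CPM (adjusted p = 0.194) and Arg1, an arginase gene, at 150.5 ± 122.3 against 149.1 ± 160.9 (SD, n = 8 and 7, adjusted p = 0.999).

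Among 16 transcription factors known to act in group 2 ILC, 1 was higher and 3 were lower (median log2 −0.24, and above 0 in DESeq2 and with its size factors). Pparg, a lipid-sensing nuclear receptor, was at 0 in CILP and at 0, 27.8 and 187 CPM in ILC2P (at least 21.3-fold higher, adjusted p = 0.0171). It had 22 counts in all and did not reach the count filter without ILC2P replicate 3. The lower ones were Rora, Tcf7 and Myb. Rora, a nuclear receptor needed for group 2 ILC, had 4 counts in ILC2P, all in replicate 6 (47.7 CPM), against 23.7, 224 and 366 CPM in CILP (log2 −4.99, SE 1.24, adjusted p = 0.00969). That 1 ILC2P library lay inside the CILP range and the other 7 were at 0.

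Tcf7, which encodes TCF-1, was at 0, 0 and 61.8 CPM in ILC2P and 166, 385 and 779 in CILP. The ranges did not meet, with mean levels 24.6-fold higher in CILP (log2 −4.33, SE 0.90, adjusted p = 0.00102). Myb, a factor of haematopoietic progenitors, had 3 counts in ILC2P, at most 34.5 CPM, and lay at 143, 270 and 669 CPM in CILP (log2 −5.81, SE 0.62, adjusted p = 2.91e-12). Bcl11b, which marks commitment towards group 2 ILC and T cells, was at 107, 467 and 1036 CPM against 160, 469 and 920 (adjusted p = 0.982). Id2, an inhibitor of E proteins, and Ets1 did not pass either (adjusted p = 0.951 and 0.333), and none of 7 E protein and Id genes was called (median log2 −0.66). Id2 was split within both groups. It was at 0 in ILC2P replicates 1, 2 and 3, all of batch 2, and at 769 to 1002 CPM in the others. In CILP it was at 197 and 79.6 CPM in replicates 1 and 2 and at 650.5 to 2286 in the others.

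Genes of the common progenitor formed the list with the most members lower. Of 19 tested early ILC genes 10 were lower and 1 higher (median log2 −2.55); without the 2 shallow ILC2P libraries 9 were lower, and with DESeq2's size factors 8. Zbtb16, which encodes PLZF, was at 0, 0 and 34.5 CPM in ILC2P and 186, 325 and 524 in CILP (log2 −5.64, SE 1.10, adjusted p = 0.000381). Tox was at 0, 0 and 137 CPM against 337, 621 and 930 (log2 −4.09, SE 0.80, adjusted p = 0.000381). The groups did not overlap for either. Pdcd1, the gene of the inhibitory receptor PD-1, was at 0 in all ILC2P libraries and at 135, 289 and 594 CPM in CILP (at least 58.9-fold lower, adjusted p = 3.58e-05). Sox4 was at 14.8 CPM or less in ILC2P and at 201, 662 and 1088 in CILP (adjusted p = 4.72e-07). Nfil3, an early ILC factor, had 1 count in ILC2P and 38 in CILP and did not pass (adjusted p = 0.0799).

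Markers set down for CILP were Zbtb16, Tox, Tcf7 and Pdcd1, all high in the libraries labelled CILP, with the integrin chains Itga4 and Itgb7. Itga4 was at 633 CPM in ILC2P and 1040 in CILP on average (adjusted p = 0.28), and Itgb7 at 500 and 188 (adjusted p = 0.227), so the pair did not separate the groups. The 1 early ILC gene that rose was Cxcr6, a chemokine receptor gene, at 238, 458 and 2320 CPM in ILC2P and 11.9, 63.5 and 112 in CILP. Its groups did not overlap (10-fold on mean levels, log2 3.26, SE 0.67, adjusted p = 0.000967).

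**Figure D3:**
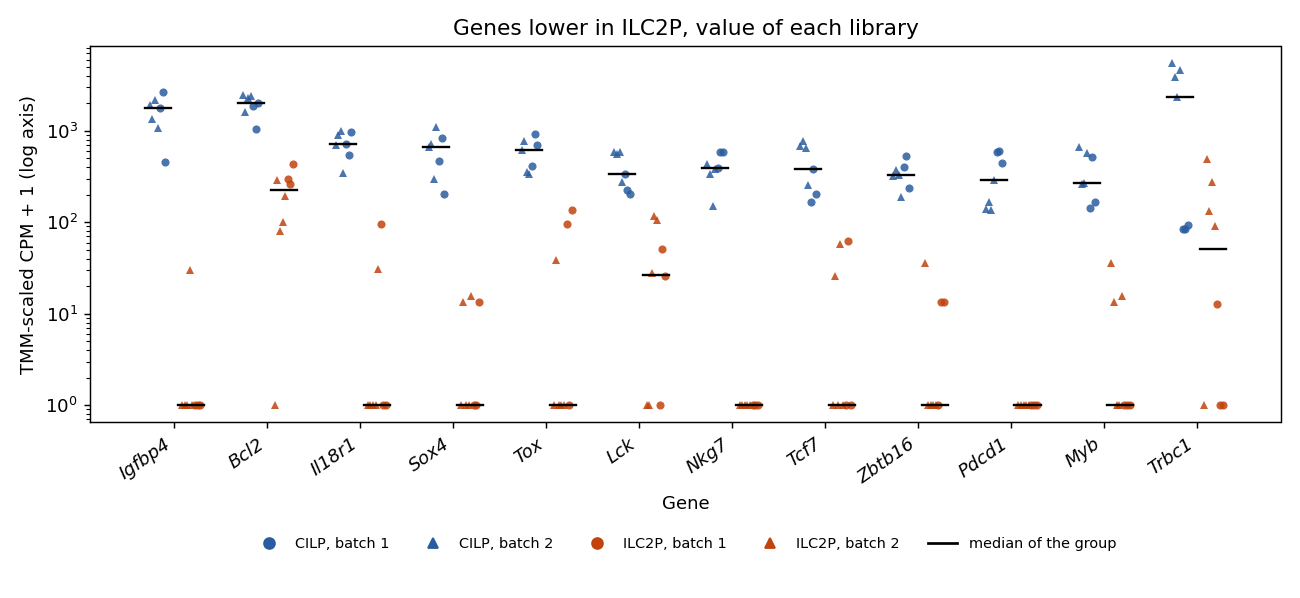
TMM-scaled CPM plus 1 (log axis) of 12 genes called lower in ILC2P, 1 point per library; circles are batch 1, triangles batch 2, black lines group medians. Most ILC2P libraries are at 0 for Igfbp4, Sox4, Nkg7 and Pdcd1, and Trbc1 in CILP splits by batch, at 83.1 to 91.5 CPM in batch 1 and 2332 to 5495 in batch 2.

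Igfbp4, which encodes a binding protein of insulin-like growth factors, had the smallest adjusted p of the comparison. It lies on chromosome 11 (99040005 to 99052655) and was at 457, 1757 and 2657 CPM in CILP, while in ILC2P it had 2 counts, both in replicate 4 (28.8 CPM). The lowest CILP library stood well above that value. The pooled ratio was 431 higher in CILP (counting interval 119 to 3560; log2 −8.45, SE 0.72, adjusted p = 3.58e-17). Tmsb15a, a thymosin β gene, was at 0 in ILC2P and at 182, 413 and 1944 CPM in CILP (at least 101-fold lower, adjusted p = 4.55e-07), with higher values in batch 2.

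Genes of natural killer cells and group 1 ILC were lower in 9 of 20 tested members and higher in none (median log2 −4.94). With DESeq2's size factors 5 were called lower, and without the shallow libraries 7. Nkg7, a cytotoxic granule gene, was at 0 in all 8 ILC2P libraries and at 151, 392 and 587 CPM in CILP (at least 72.2-fold lower, adjusted p = 1.32e-08). Klrd1, the gene of CD94, had 3 counts in 1 ILC2P library (35.8 CPM) and lay at 54.9, 217 and 394 CPM in CILP (adjusted p = 0.00039). Ctsw, a cathepsin of cytotoxic cells, and Eomes, a factor of natural killer cells, were at 0 in ILC2P (at least 17.3-fold and 15.1-fold lower, adjusted p = 0.00404 and 0.00715). Summed over the 24 listed genes, this list took 0.00854 to 0.135% of the counts in ILC2P and 0.235 to 0.565% in CILP. The CILP libraries all exceeded the ILC2P libraries. Of the group 3 list 2 of 14 were lower (median log2 −0.72), among them Batf3.

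T lineage genes were lower in 6 of 20 tested members and higher in none (median log2 −1.12). Lck, a kinase of antigen receptor signalling, was at 0, 25.7 and 115 CPM in ILC2P and 201, 332 and 587 in CILP (9.9-fold on mean levels, adjusted p = 0.00125), without overlap. Cd3d was at 0 in ILC2P and at 0, 37.2 and 201 CPM in CILP (at least 12.4-fold lower, adjusted p = 0.0151). Trbc1, which encodes a constant region of the T cell receptor β chain and can share reads with its near copy Trbc2, was at 0, 50.4 and 489 CPM in ILC2P and 83.1, 2332 and 5495 in CILP (adjusted p = 1.5e-07). Its level moved with batch in both groups. In batch 1 it was at 0 to 11.9 CPM in ILC2P and 83.1 to 91.5 in CILP (log2 −4.18, adjusted p = 0.344), and in batch 2 at 0 to 489 and 2332 to 5495 (log2 −4.27, adjusted p = 5.7e-05).

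Survival and death genes of the Bcl2 family, pooled in 1 list, fell in 2 of 12 tested members (median log2 −1.77, but 0.36 within batch 1). Bcl2 was at 0, 226 and 434 CPM in ILC2P and 1042, 2012 and 2472 in CILP, with every ILC2P library below every CILP library. Mean levels were 9.45-fold higher in CILP (log2 −3.20, SE 0.48, adjusted p = 8.25e-07). Within batch 1 its fitted log2 value was −2.36 (adjusted p = 0.00101) and within batch 2 −3.93 (adjusted p = 0.000284). The other member was Bik, a pro-apoptotic gene at 0 in ILC2P (adjusted p = 0.0209).

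Homing genes moved both ways, with 2 higher and 4 lower of 23 tested (median log2 −0.92). Ccr9, the receptor for a gut and thymus chemokine, was at 173, 1046 and 1447 CPM in ILC2P and 0, 59.5 and 167 in CILP. The lowest ILC2P library stood just above the highest CILP library (15.5-fold on mean levels, log2 3.88, SE 0.77, adjusted p = 0.000967). Ccr7, a lymph node homing receptor, was at 0 in ILC2P and at 0, 14 and 337 CPM in CILP (at least 16.4-fold lower, adjusted p = 0.00521).

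AP-1 and NF-κB genes rose in 3 of 20 tested members and fell in 1 (median log2 0.50). Nfkbia, the inhibitor IκBα, was at 326, 924 and 2705 CPM in ILC2P and 36.6, 308 and 420 in CILP (log2 2.33, SE 0.51, adjusted p = 0.00214). Junb, an AP-1 subunit, was at 133, 1056 and 1942 CPM against 23.7, 147 and 413 (log2 2.38, SE 0.58, adjusted p = 0.00832). Nfkbiz, an atypical IκB, was at 522 ± 586 against 50.5 ± 42.9 CPM (SD, n = 8 and 7, adjusted p = 0.0104). Ranges overlapped for these 3 genes. With DESeq2's size factors 6 were higher and none lower, and with libraries thinned to 40000 counts, which leaves out ILC2P replicates 1 and 3, 7 of the 8 genes tested were higher. The list took 0.522 to 2.98% of the counts in ILC2P and 0.231 to 0.54% in CILP, ranges that overlapped. ILC2P replicates 1 and 3 lay inside the CILP range (0.5382 and 0.5216%) and replicate 2 just above it (0.5853%), all of batch 2. Rel, the member that fell, lost its call in 5 of 15 fits, at most with adjusted p = 0.161 without CILP replicate 1, and also without ILC2P replicate 2, 6, 7 or 8.

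Immediate early and heat shock genes overlap with that list. Of 21 tested, 2 were higher, Junb and Ier2 (median log2 0.60). The count varied between fits, at 6 higher in DESeq2, 4 in edgeR with its size factors, 5 of 10 tested when thinned to 40000 counts, and 0 higher and 1 lower in batch 2 alone. Ier2 passed narrowly (adjusted p = 0.05, rounded up from below the threshold) and failed in 11 of 15 fits without 1 library, with the largest adjusted p, 0.17, without ILC2P replicate 4. The list took 0.264 to 3.46% of the counts in ILC2P and 0.303 to 0.957% in CILP, ranges that overlapped.

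Cell cycle genes fell in 6 of 38 tested members and rose in none (median log2 −0.76). With DESeq2's size factors 4 fell. Mcm7, a subunit of the replicative helicase, was at 0, 0 and 44.5 CPM in ILC2P and 39.7, 256 and 356 in CILP (adjusted p = 2.01e-06), with a narrow overlap. Mcm3, of the same helicase, was at 0, 6.18 and 29.6 CPM against 6.99, 74.3 and 406 (adjusted p = 0.00253). Glycolysis genes fell in 3 of 17 tested (median log2 −0.95), among them Pkm, a pyruvate kinase gene, at 0, 90.6 and 236 CPM against 347, 657 and 2252 (log2 −3.13, SE 0.56, adjusted p = 6.57e-05). Its groups did not overlap. The hexokinase gene Hk2 had 2 counts in ILC2P and lay at 63.5, 130 and 285 CPM in CILP (adjusted p = 0.0155).

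Stem and progenitor genes fell in 3 of 16 tested (median log2 −2.06), namely Sox4, Kit and Cd34, the last not called without CILP replicate 5 (adjusted p = 0.0548). MHC class II genes fell in 2 of 10 tested (median log2 −2.70), with H2-Eb1 at 0 in 7 ILC2P libraries and at 0, 126 and 373 CPM in CILP (adjusted p = 0.00147). Of 11 Notch genes 2 were higher, Il2ra and Lfng, a modifier of Notch receptors whose call was lost in 5 of 15 fits, with adjusted p = 0.235 without ILC2P replicate 5, and also without CILP replicate 1, 2, 3 or 4. Of 16 costimulatory and inhibitory receptors Klrg1 was higher and Pdcd1 and Cd28 were lower (median log2 −0.27). Cd28 was lost without CILP replicate 4 or ILC2P replicate 6, 7 or 8 (adjusted p = 0.0524 to 0.0636). Of 6 Ly6 genes 1 was called, Ly6a, against 3 called higher in DESeq2 and 2 in limma-voom. None of 8 Gimap genes (median log2 0.47), 23 interferon response genes (median log2 0.57) or 7 recombination genes (median log2 −2.59) was called in the edgeR fit of all groups, at adjusted p values of 0.151 and 0.73 for Gimap8 and Gimap5. DESeq2 called 1 Gimap gene and 2 interferon response genes higher. The interferon list held Gbp2 but not Gbp4, Gbp7 or Gbp8, which the edgeR fit called higher (adjusted p = 0.00226, 0.0131 and 0.0334). The absence of calls therefore covers the listed interferon genes only. Of the recombination genes 1 was higher and 1 lower in batch 1 alone, and 1 was lower without the shallow libraries.

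**Figure D4:**
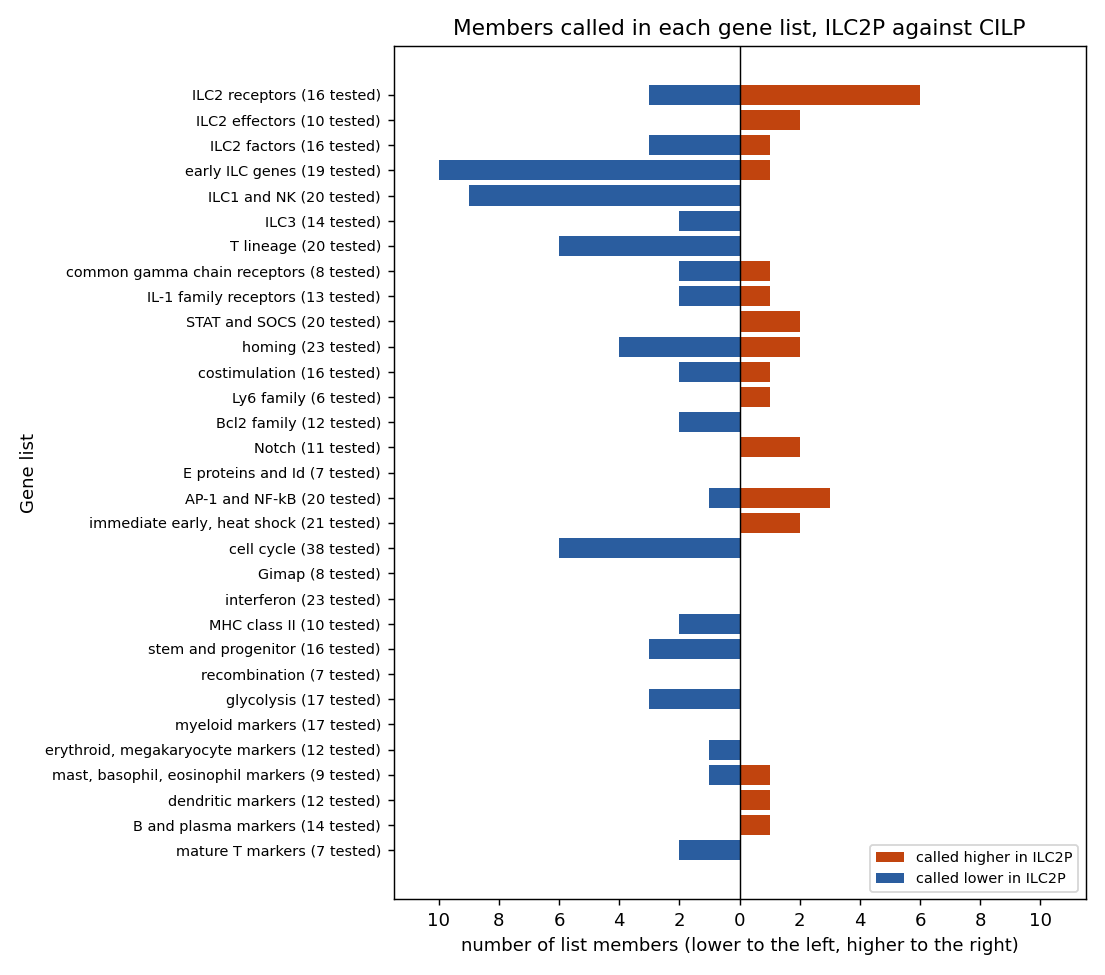
Number of members called higher (red, to the right) and lower (blue, to the left) in ILC2P for 31 gene lists, with the number tested in brackets. The largest counts are 6 receptors of group 2 ILC higher, 10 early ILC genes lower and 9 ILC1 and natural killer genes lower, where all tested genes together gave 1.1% higher and 4.22% lower.

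Markers of other cells took small shares of the counts, but single members were high in some libraries. Myeloid markers had 0 of 17 members called, and 1 was lower in batch 1 alone and without the shallow libraries. They took 0.616% of the counts of ILC2P replicate 1 and 0.304% of replicate 6, against 0.0128 to 0.0844% of the other ILC2P libraries and 0.0398 to 0.247% of CILP. S100a9 was at 794 CPM in ILC2P replicate 1, 942 in ILC2P replicate 6 and 819 in CILP replicate 2. Mature T cell markers took 0.00124 to 0.108% in ILC2P and 0.0179 to 0.561% in CILP, with Cd3e at 0 in ILC2P and at 2.23 CPM in CILP. The called members, Trbc1 and Cd3d, were both lower in ILC2P. Trbc1 averaged 124.5 CPM in ILC2P and 2358 in CILP. B and plasma cell markers took 0.00854 to 0.395% in ILC2P and 0.02 to 0.141% in CILP. Cd79b averaged 178 and 176 CPM and Ighm 355 and 436, while Ms4a1 was at 0 in both. The called B lineage gene Blnk rested on 10 counts in ILC2P. Mast cell, basophil and eosinophil markers took 0 to 0.0408% in ILC2P and 0.00473 to 0.516% in CILP, the highest in CILP replicate 5. Fcer1a was at 0 in ILC2P and 3.39 CPM in CILP. Mcpt8 and Prss34, also at 0 in ILC2P, were at 513 ± 1355 and 45.8 ± 121 CPM in CILP (SD, n = 7, adjusted p = 0.227 and 0.267). Cpa3, a mast cell protease gene, fell from 309 ± 207 to 6.13 ± 13.2 CPM (SD, n = 7 and 8, adjusted p = 0.000413), while the eosinophil granule gene Prg2 (17 counts, all in ILC2P) lost its call without replicate 5 or 6 (adjusted p = 0.128 and 0.067). Erythroid and megakaryocyte markers took 0.00124 to 0.129% in ILC2P and 0.00624 to 0.152% in CILP, and Itga2b was the 1 called, lower in ILC2P. Dendritic cell markers took 0.107 to 0.24% and 0.0395 to 0.11%, with Ccr9 the 1 called and Clec9a at 0 in both groups. The part of such cells in the results above was not tested.

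Across the wild-type populations the genes fell into different patterns. Rnf128 averaged 1187 CPM in ILCP, 1.06 in CILP and 0 in α4β7+ CLP, and Il1rl1 averaged 1103, 0.984 and 5.47 in the same order. Ly6a was higher in CLP and α4β7+ CLP than in CILP, at averages of 127.5 and 68.8 CPM against 7.29. Sox4 and Myb were highest on average in CLP and lowest in ILC2P. These are group means set side by side, and the differences among the earlier populations were not tested here.

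**Figure D5:**
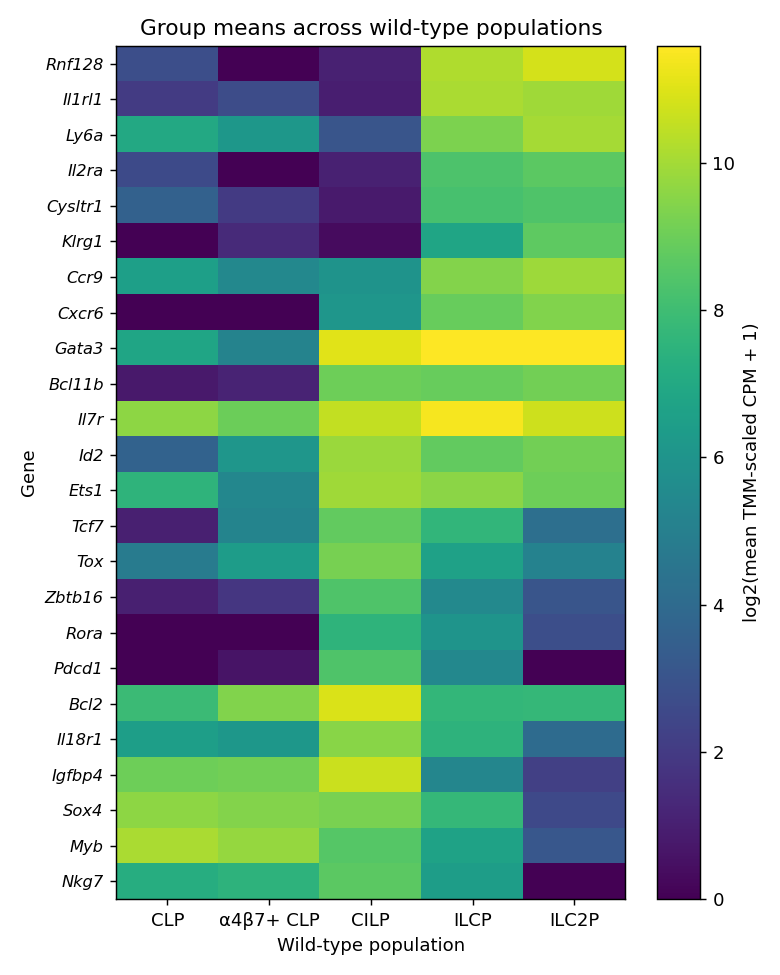
Mean expression, as log2(mean TMM-scaled CPM + 1), of 24 genes in 5 wild-type populations: CLP (n = 8), α4β7+ CLP (n = 5), CILP (n = 7), ILCP (n = 3) and ILC2P (n = 8). The upper rows are brightest in ILCP and ILC2P, Gata3 and Bcl11b are high in CILP, ILCP and ILC2P alike, and the rows from Il18r1 to Nkg7 are darkest in ILC2P.

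The libraries labelled ILCP (n = 3) were set against the same ILC2P libraries. How these cells were gated is not labelled, and Sca1+ CILP is the 1 sorted population of the design text that no label names. Against ILCP, 53 genes were called in ILC2P, all lower (0.483% of 10972). Igfbp4 was at 49.4, 0 and 67.3 CPM in the 3 ILCP libraries, and Rnf128 at 217, 2435 and 909. Ly6a was at 202, 727 and 959 CPM there, above the CILP range in each. Il18r1 was at 262 CPM in ILCP replicate 1, at 0 in replicate 2 and at 278 in replicate 3. So the 3 ILCP libraries differed among themselves in the genes that separate CILP from ILC2P.

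In the libraries labelled TCF7, Tcf7 itself had 0, 20, 2 and 2 counts in the 4 CILP libraries (at most 63.4 CPM) and 0 and 11 in the 2 ILC2P libraries (0 and 53.4 CPM). All 4 CILP libraries lay below every WT CILP library. The labels do not say which part of the gene was deleted, and a 3′ tag outside that part checks nothing.

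In these libraries the contrast of ILC2P (n = 2, batch 2) with CILP (n = 4) differed from that in WT for 42 genes (0.383% of 10972), by a test of the difference itself. In each of the 42 the log2 difference was positive. Of these, 13 are among the named genes reported here, all of them lower in WT ILC2P. Igfbp4 was at 64.7 and 67.9 CPM in the 2 TCF7 ILC2P libraries and at 20, 98.3, 294 and 249 in the 4 TCF7 CILP libraries (difference of log2 values 7.26, adjusted p = 1.26e-05). Both TCF7 ILC2P libraries were above every WT ILC2P library for this gene. The TCF7 ILC2P libraries held 252100 and 248697 counts, more than any WT ILC2P library, and the part of depth was not tested. B and plasma cell markers took 20.43% of the counts of TCF7 ILC2P replicate 1 and 0.1138% of replicate 2, against 0.0595 to 0.696% in TCF7 CILP. Myeloid markers took 0.966 and 0.0981% in the same order, and 0.18 to 1.207% in TCF7 CILP, with S100a9 at 5112 CPM in TCF7 ILC2P replicate 1 and at most 942 in WT ILC2P. Erythroid and megakaryocyte markers took 0.854 and 0.0129%, and up to 3.709% in TCF7 CILP replicate 4. The part of such cells was not tested.

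Without TCF7 ILC2P replicate 1, 15 genes were called, each of them among the 42, and 10 of the 13 named ones. Igfbp4 was among them (difference 7.30, adjusted p = 0.000117). Without replicate 2, 40 were called, 27 of them shared, and 6 of the named ones. In both fits the lone ILC2P library is assumed to vary like the other groups. Without TCF7 CILP replicate 1, 3 or 4 the count was 15, 19 and 13, and without replicate 2 it was 69. Igfbp4 passed in all 6 fits.

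Of the ILC2P markers, Il2ra and Ly6a were higher in both TCF7 ILC2P libraries than in any TCF7 CILP library. Il2ra was at 372 and 684 CPM against 25.4 or less, and Ly6a at 2896 and 971 against 107 or less. Il1rl1 was at 146 and 903 CPM, the first below every WT ILC2P library and close to the 140 CPM of TCF7 CILP replicate 3. Gata3 was at 316 and 1436 CPM, against 88.9 to 664 in TCF7 CILP and at least 1973 in 7 of the 8 WT ILC2P libraries. Rnf128 was at 340 and 820 CPM against 20 or less.

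The Nfil libraries gave the same contrast in libraries outside the main fit. One Nfil CILP library held 296 counts, so the comparison rests mostly on the other, with 48517. In a separate fit that kept both of these libraries, 11 of 7815 genes were called (0.141%). Rnf128 had 114 and 56 counts in the 2 Nfil ILC2P libraries and 3 in the deeper Nfil CILP library. Il1rl1 had 92 and 39 counts against 2, and Ly6a 30 and 12 against 0. None of these passed in that fit (adjusted p = 0.174 for Rnf128, 0.249 for Il1rl1 and 0.263 for Ly6a). Klrg1 had 0 counts in both Nfil ILC2P libraries. Of the 121 genes higher in WT ILC2P, 98 were tested there, 66 were positive and 0 were called. Igfbp4, Tcf7 and Bcl2, of the CILP side, did not follow. The deeper Nfil CILP library had 0 counts of Igfbp4 and Tcf7 and 1 of Bcl2, unlike every WT CILP library. For Il18r1 it had 16 counts, against 0 in both Nfil ILC2P libraries. Of the 463 genes lower in WT ILC2P, 380 were tested there and 132 were negative.

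The CILP library named an outlier held 47089 counts. It had 0 counts of Rnf128, Il1rl1, Ly6a and Il2ra. Its CPM, on its own total without TMM scaling, was 616 for Igfbp4, 1932 for Bcl2, 616 for Tox, 170 for Zbtb16 and 127 for Tcf7. For these genes it sat on the CILP side of the comparison. With it put back, 140 genes were higher and 472 lower in ILC2P.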

How the data were processed

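Cells were sorted from mouse bone marrow into lysis buffer, and 3′ biased CEL-seq libraries were made, per the labels' protocols. The authors deposited 1 table of unnormalised gene counts for each batch, with Entrez identifiers as row names. The submitters' processing notes name CASAVA 1.8.2, featureCounts, limma, edgeR 3.8.2 and 3.22.0, and the mouse build mm10; the aligner and any molecular identifiers are not given in the sources used here, so intervals cover counting error only. Symbols, coordinates and promoters came from RefSeq on GRCm38.p6, the assembly of mm10; 25275 of 27179 identifiers (92.99%) matched.

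All 47 WT, TCF7 and Id2 libraries entered 1 edgeR 4.0.16 fit in R 4.3.3 (filterByExpr with a minimum count of 10 and minimum total of 15, TMM, robust quasi-likelihood, a mean per group plus batch, 35 residual degrees of freedom). It tested 10972 genes with a biological coefficient of variation of 109.7%, and a call is an adjusted p under 0.05. The smallest group, Id2 ILCP, held 1 library, so a gene above the count cutoff in 1 library and above the minimum total was tested. With few ILCP or TCF7 libraries, those groups are assumed to vary like the rest. Nfil was fitted with 31 batch 2 libraries. A fold against a group at 0 counts is a bound set by 3 counts over that group (5.68 CPM in ILC2P, 2.22 in CILP); with 1 to 3 counts, a pooled ratio with a 95% counting interval is given. Mean CPM folds are ratios of group means. TMM factors were 1.047 to 1.5523 in ILC2P and 0.82203 to 1.3087 in CILP.

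The comparison, the 33 gene lists and the naming rule were chosen with earlier results of these data known. Named were the markers, 14 key regulators, from each list up to 4 called members by adjusted p (2 by level where none was called), and the 12 largest changes each way whose higher group averaged 20 CPM or more and whose sign matched between batches; unnamed models, ribosomal and mitochondrial genes were passed over. This gave 92 genes, 75 of them called, and the text gives values for most. Results for a few of them are not reported here. Other list members named with values, such as Il17rb and Arg1, were added after their values were seen. Simulated counts with known changes were drawn with the means, depths and spread of these data and without a batch effect. The same fit was run on them and tested 9376 genes. It recovered 25 of 50 genes raised 8-fold in ILC2P and 49 of 50 raised 64-fold. Of genes lowered 8-fold and 64-fold it recovered 14 and 29 of 50. Among 130 genes called there, 13 had not been changed. Alternatives were DESeq2 1.42.0, its size factors (382 genes without a 0), limma-voom (3.58.1), no count filter, no batch term, fits of fewer groups or of 1 batch, the outlier put back, repeats not added, leaving out libraries below 20% of the batch median, thinning to 19322 counts, and each library left out. Thinning to 40000 counts and leaving out each TCF7 library were added after seeing the data.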

Additional observations from a re-analysis of the deposited data

Results flagged for a closer look

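A library stood apart from the rest of its group in 16 of 61 groups of values screened. A chance rate of about 1 in 20 does not hold where every other library is at 0, since any count is then flagged. In 10 of the 16 the gene was at 0 in every other library of the group. In CILP these were Rnf128, Il2ra and Flt3 in replicate 1 (7.436, 7.436 and 26.02 CPM), Klrg1 and Ccdc184 in replicate 2 (1.896 CPM each), and Il1rl1 and Slc7a8 in replicate 4 (6.886 CPM each). In ILC2P they were Igfbp4 in replicate 4 (28.77 CPM), Rora in replicate 6 (47.68) and Nfil3 in replicate 2 (12.53).

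ILC2P replicate 1, the shallowest library, was lowest for Gata3 (276.2 CPM, the others 1972.9 to 6387.2) and for Cysltr1 (0, the others 213 to 748.1). CILP replicate 3 was lowest for Nkg7 (150.7 CPM, the others 333.7 to 587.4), CILP replicate 4 for Vasn (0, the others 44.61 to 440.6) and CILP replicate 7 for Togaram2 (0, the others 48.95 to 412.5). CILP replicate 2, the deepest, was highest for Il7r (3132.1 CPM, the others 920.3 to 1427.6).

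The ILC2P minus CILP contrast differed between TCF7 and WT, in edgeR's test of the difference, for 13 of the named genes reported here. The differences of log2 values were 8.34 for Nkg7, 7.26 for Igfbp4, 14.71 for Xkrx, 11.15 for Vasn, 5.11 for Il18r1, 4.27 for Myb and 6.38 for Sox4. They were 4.74 for Lck, 11.55 for Cd3d, 11.27 for Irak3, 10.57 for Cd28, 3.66 for Bcl2 and 4.82 for Pkm (adjusted p = 1.26e-05 to 0.0472 over the 13). Of the 13, 10 were called without TCF7 ILC2P replicate 1, in which B and plasma cell markers took 20.43% of the counts, and 6 without replicate 2. The values of Xkrx and Cd3d rest on 1 TCF7 ILC2P library, replicate 2, with counts in none of the TCF7 CILP libraries. Xkrx, Cd3d, Nkg7, Vasn, Irak3 and Cd28 had 0 counts in all 8 WT ILC2P libraries. The differences given for these genes are fitted values with no bound. Irak3 had counts in TCF7 ILC2P replicate 2 and not in replicate 1, and Cd28 in replicate 1 and not in replicate 2.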

How the results depend on the processing

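The total of 584 calls (121 higher, 463 lower) fell to 90 (46, 44) with only the compared libraries, where 1245 genes were tested. It fell to 187 (64, 123) in batch 1 alone, 93 (15, 78) in batch 2 alone, and 326 (lower 235) without the 2 shallow ILC2P libraries. It fell to 27 of 207 tested (20, 7) with libraries thinned to the smallest total, and 73 (40, 33) thinned to 40000 counts. Lower calls fell to 271 in DESeq2 and 231 with its size factors, and higher calls rose to 232 in limma-voom; the cause was not tested. Leaving out each library gave 437 to 535 calls, 85 to 118 higher and 326 to 436 lower. Of 75 named genes called, 61 were called in each of 15 such fits, and no called value of a named gene changed sign in the settings where it had a value. Of the 75, 24 had a value with only the compared libraries, 17 when thinned to 40000 counts and 8 when thinned to the smallest total. The result was weaker for 34 in batch 1 alone, 43 in batch 2 alone and 13 in DESeq2. List counts did shift between directions: immediate early and heat shock genes went from 2 higher and 0 lower to 0 and 1 in batch 2 alone, and group 2 ILC factors from 1 and 3 to 2 and 1 when thinned to 40000 counts. The 42 genes of the TCF7 comparison became 13 to 69 without each of 6 TCF7 libraries, an alternative chosen after seeing the data. The call of Radx was lost without ILC2P replicate 4 (adjusted p = 0.0596), Ccdc184 without replicate 5 (0.0733), Tmem35a without replicate 6 (0.191), Ccnd1 without CILP replicate 2 (0.125), and Tpi1 in 11 of the 15 fits (up to 0.0836). DESeq2 gave no adjusted p for 3244 genes. At these depths a gene without a call is not shown to be equal. No paired analysis was possible because the replicate numbers used follow accession order and the labels do not say whether libraries of different populations were paired, which leaves pairing unknown.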
